A study of Homo sapiens with 9 samples.

Results

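The 10 genes described here encode transporters of bile acids and sterols in liver cells and were measured in 3 Huh-7 lines. They were chosen by name, as SLC10A1, SLCO1B1, SLCO1B3, ABCB11, ABCB4, ABCC2, ABCG5, ABCG8, SLC51A and SLC51B, and each was matched to 1 Ensembl identifier in a count table of 60664 genes. Of these, 9 were among the 17207 genes with enough reads for testing, and SLC10A1 was not. Huh-7 is a human hepatocellular carcinoma line. The study asked what the loss of a vault RNA (vtRNA), a short noncoding RNA transcribed by RNA polymerase III, does to the transcriptome of these cells. It compared wild-type cells (WT) with cells in which CRISPR/Cas9 had removed the VTRNA1-1 gene (1-1 KO) or the VTRNA1-2 gene (1-2 KO). Each line had 3 mRNA libraries. All were grown without any added agent to 80% confluency in DMEM/F12 with 10% heat-inactivated serum and antibiotics. The 1-2 KO line was 1 clone raised from a single cell of the WT culture, and the WT and 1-1 KO cells had been obtained from another laboratory. Each knockout is thus represented by 1 line, and the effect of a deleted gene cannot be told apart from a difference between lines.

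Hepatocytes take bile acids up from the blood at their basolateral face, return part of them across the same face, and secrete the rest across the canalicular face into bile. SLC10A1 (NTCP) carries conjugated bile acids in with sodium, while SLCO1B1 and SLCO1B3 (OATP1B1 and OATP1B3) carry bile acids, bilirubin and many drugs in without it. ABCB11 (BSEP) pumps bile salts into bile, ABCB4 (MDR3) moves phosphatidylcholine to the outer leaflet of the canalicular membrane, ABCC2 (MRP2) exports conjugated bilirubin and other organic anions, and ABCG5 and ABCG8 form an obligate heterodimer that exports cholesterol and plant sterols. SLC51A and SLC51B (OSTα and OSTβ) form the basolateral bile acid efflux transporter. The bile acid receptor FXR, encoded by NR1H4, is known to activate ABCB11, SLC51A, SLC51B, ABCB4, ABCC2 and SLCO1B3, and the liver X receptors are known to activate ABCG5 and ABCG8.

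The libraries held between 32384469 and 41782387 counts. Levels are given as read counts and as CPM, that is, per 1000000 counts of the library after scaling with edgeR's TMM factors, with the mean ± SD over n = 3 libraries. Differences were tested with edgeR's quasi-likelihood test in 1 fit of all 9 libraries, and a gene with a Benjamini-Hochberg adjusted p under 0.05 over all tested genes is called a differentially expressed gene (DEG). The study calls the 3 libraries of a line biological replicates, while the labels do not say that they came from separate cultures, and the p-values measure the spread between these libraries. The 1-2 KO replicate 1 stood apart from the other libraries of its line, as the chi-square of their counts, divided by its degrees of freedom, was 15.3 and 16.2 against them and 2.08 to 10.4 for the other pairs within a line. Without it, all calls of the 9 tested transporters were as given here. VTRNA1-1 had 1 count in a single WT library and 0 in the others, and VTRNA1-2 had 0 counts in all 9 libraries, so that these mRNA libraries cannot check the knockouts. The 10 hepatocyte markers examined, such as ALB and APOB, were expressed in all 3 lines.

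The start regions of the genes on which the results turn are shown first, as the 250 bases before the RefSeq start (GRCh38.p14) in the direction of transcription. Of the 10 transporters, 9 had an entry in the RefSeq promoter table, and ABCB4 had none. SLCO1B1 (chr12:21130944-21131193, plus strand) and SLCO1B3 (chr12:20810455-20810704, plus strand) are shown because they are paralogs whose reads were most numerous in 1-1 KO. Capitals in SLCO1B3 mark GGACAATGA, a match to GGNCANTGA, a shortened form of the FXR inverted repeat, and SLCO1B1 has no capitals. ABCB11 (chr2:169031325-169031574, minus strand) is shown because it is the best known FXR target among the 10 and was lower in 1-2 KO, and its capitals mark GGACATTGA, a match to the same shortened form. The last line is the stretch between the starts of ABCG5 and ABCG8, which are transcribed away from each other (chr2:43838840-43838970, plus strand, 131 bases), shown because both genes of the sterol exporter start from it.
SLCO1B1: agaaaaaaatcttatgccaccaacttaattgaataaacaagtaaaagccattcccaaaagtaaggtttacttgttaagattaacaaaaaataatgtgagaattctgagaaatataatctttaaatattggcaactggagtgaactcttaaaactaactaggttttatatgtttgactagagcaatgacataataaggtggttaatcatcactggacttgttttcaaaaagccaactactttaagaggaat
SLCO1B3: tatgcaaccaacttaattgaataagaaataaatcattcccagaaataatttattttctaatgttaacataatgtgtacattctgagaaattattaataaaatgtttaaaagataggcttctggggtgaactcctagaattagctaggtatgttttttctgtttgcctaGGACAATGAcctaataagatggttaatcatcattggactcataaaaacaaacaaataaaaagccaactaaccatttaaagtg
ABCB11: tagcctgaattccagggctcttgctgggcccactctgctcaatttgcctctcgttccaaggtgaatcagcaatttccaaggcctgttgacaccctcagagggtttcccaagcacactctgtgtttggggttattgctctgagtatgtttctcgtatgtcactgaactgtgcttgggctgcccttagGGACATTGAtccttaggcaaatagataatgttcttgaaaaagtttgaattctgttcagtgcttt
ABCG5-ABCG8: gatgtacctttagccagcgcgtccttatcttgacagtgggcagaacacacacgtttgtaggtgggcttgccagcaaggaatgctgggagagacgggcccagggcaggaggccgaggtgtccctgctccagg

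Over the whole 250 bases, the SLCO1B1 and SLCO1B3 sequences aligned at 226 positions and were identical at 182 of them (80.5%). The shortened FXR form lay at -82 to -74 from the start of SLCO1B3 and at -64 to -56 from that of ABCB11, counted to the first transcribed base. On both strands, it occurred in 4.46% of 35116 promoter windows of 300 bases. It was chosen after the sequences had been read. The full inverted repeat GTCANTGAC (0.347% of windows), the HNF4A motif CAAAGTCCA (0.384%) and the NR5A2 motif TCAAGGTCA (0.353%) had no match in the windows of the 9 transporters. A match describes these letters and not binding.

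Compared with WT, 1-1 KO cells had more mRNA of the organic anion uptake carrier SLCO1B1, of the sterol exporter subunit ABCG8 and of both subunits of the basolateral exporter, and less mRNA of the canalicular pumps ABCC2 and ABCB4. Of the 9 tested transporters, 7 were DEGs, against 63.4% of all tested genes. They comprised 5 that were higher (32.5% of all tested genes) and 2 that were lower (30.9%), and the median log2 fold change was 0.64, where that of all tested genes was 0.01. SLCO1B3 is among the 5, but it passed the filter on low counts only through 1-1 KO, where it is high, and its call is no support. Without it, 6 of 8 were DEGs, with 4 higher and a median of 0.32. With DESeq2, which gave values for all 10, the median was 0.33. In 1-2 KO against WT, 5 were DEGs (54.4% of all tested genes), all of them lower (26.2%) and none higher (28.2%), and the median was -0.36 against 0.02. These 5 were ABCB11, ABCG5, ABCG8, ABCB4 and ABCC2, that is, each of the 5 ABC transporters among the 10. None of the 4 tested SLC carriers among the 10 passed the threshold in 1-2 KO, also not at an unadjusted p under 0.05 and not with DESeq2. This did not extend to all such genes outside the 10, as the SLC carrier SLCO2B1 was a DEG with a lower level in 1-2 KO (adjusted p = 4.44e-07). Of other ABC transporters, ABCC4 (adjusted p = 0.000394) and ABCC6 (adjusted p = 0.0255, with overlapping libraries) were DEGs with a higher level in 1-2 KO. ABCC3, ABCB1, ABCG2 and ABCA1 were DEGs with a lower level there, and ABCG1 is described below. These other ABC genes were named here after their values were seen. Between the knockouts, 8 of 9 were DEGs (65.3% of all tested genes), with 7 lower in 1-2 KO (32.2%), 1 higher (33.1%) and a median of -1.44 against 0.01. Without SLCO1B3, 7 of 8 were DEGs between the knockouts, with a median of -1.19. With 7 of 9 and 5 of 9, the shares of DEGs in the comparisons with WT were near those of all tested genes and are no result about the transporters as a group. The comparisons share libraries and are not independent of each other.

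**Figure D1:**
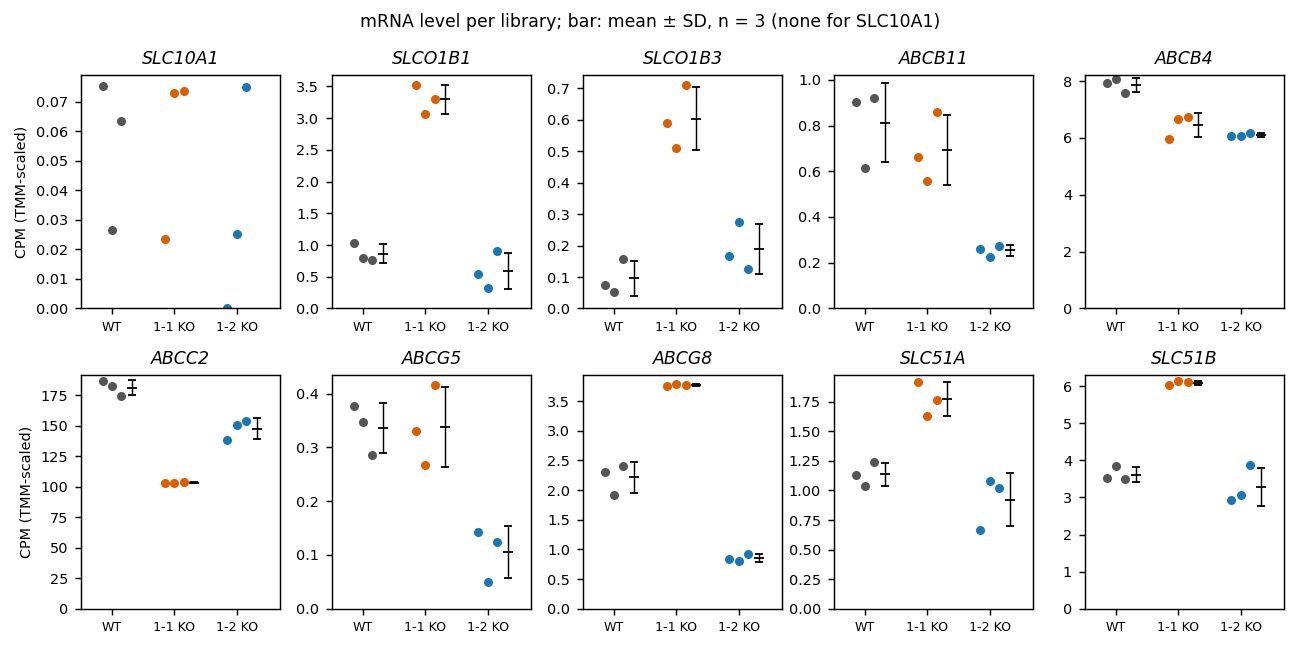
Level of each of the 10 transporters in every library, as TMM-scaled CPM on axes that start at 0, with WT in grey, 1-1 KO in orange and 1-2 KO in blue, and with the mean ± SD of 3 libraries as bars for the 9 tested genes. The 1-1 KO libraries lie above all others for SLCO1B1, SLCO1B3, ABCG8, SLC51A and SLC51B and below all others for ABCC2, and the 1-2 KO libraries lie below all others for ABCB11, ABCG5 and ABCG8.

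**Figure D2:**
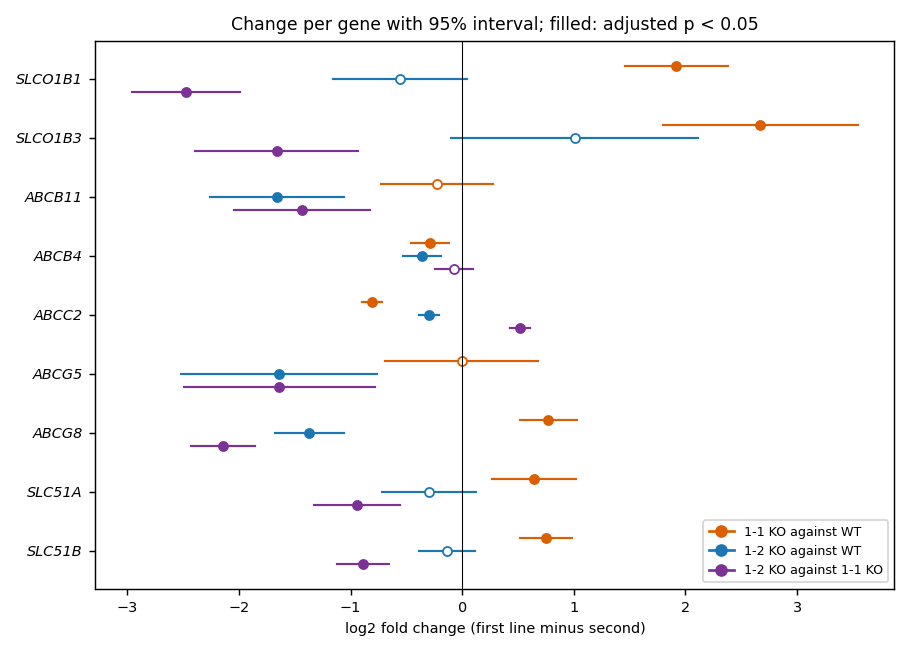
Log2 fold change of the 9 tested transporters with its 95% interval in 1-1 KO against WT (orange), 1-2 KO against WT (blue) and 1-2 KO against 1-1 KO (purple), where filled points are DEGs. Positive values are changes of 5 genes in 1-1 KO against WT, the change of ABCC2 between the knockouts and that of SLCO1B3 in 1-2 KO against WT, which did not pass the threshold. SLCO1B3 passed the filter on low counts only through 1-1 KO, so that its filled points describe that line and are no support.

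SLC10A1 (ENSG00000100652; chr14:69775416-69797241, minus strand), the sodium-dependent uptake carrier, was barely detected in any line. It had 3, 1 and 2 counts in WT, 1, 3 and 3 counts in 1-1 KO and 0, 1 and 3 counts in 1-2 KO. All 9 values lie at or under 3 counts, the floor used here, and no fold change is given. A count of 3 corresponds to between 0.0709 and 0.0951 CPM in these libraries, and differences below this level were not detectable at this depth.

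SLCO1B1 (ENSG00000134538; chr12:21131194-21239796, plus strand) was the uptake carrier with the most reads among the transporters chosen by name. It had 41, 30 and 24 counts in WT, 149, 126 and 135 in 1-1 KO and 23, 13 and 36 in 1-2 KO. All 1-1 KO libraries were above all others, whereas those of WT and 1-2 KO overlapped. The mean level was 0.864 ± 0.146 CPM in WT and 3.30 ± 0.229 CPM in 1-1 KO, which is 3.82-fold higher (log2 fold change 1.92, SE 0.22, adjusted p = 2.66e-06). In 1-2 KO the level was 0.590 ± 0.289 CPM and the change did not pass the threshold (log2 fold change -0.56, 95% interval -1.16 to 0.04, adjusted p = 0.108). This value depended on single libraries, since without 1-2 KO replicate 3 the log2 fold change was -0.98 (adjusted p = 0.00697) and without 1-2 KO replicate 2 it was -0.27 (adjusted p = 0.380). Between the knockouts, SLCO1B1 was 5.59-fold lower in 1-2 KO (log2 fold change -2.48, SE 0.23, adjusted p = 2.63e-07), the largest difference of any of the 9 tested transporters in that comparison.

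SLCO1B3 (ENSG00000111700; chr12:20810702-20916911, plus strand), its paralog, had 3, 2 and 5 counts in WT, 25, 21 and 29 in 1-1 KO and 7, 11 and 5 in 1-2 KO. Here too the 1-1 KO libraries were above all others. The gene passed the filter on low counts only through 1-1 KO, so that a high level in that line was a condition of its being tested, and its values are given for that line as a description without a test. The level was 0.0957 ± 0.0555 CPM in WT, with counts at or near the floor, and 0.604 ± 0.101 CPM in 1-1 KO. The 75 and 10 counts summed over each line gave a ratio of 6.57, with an exact interval for counting error alone of 3.38 to 14.3. In 1-2 KO the level was 0.189 ± 0.0783 CPM, with a log2 fold change of 1.01 against WT that did not pass the threshold (95% interval -0.10 to 2.12, adjusted p = 0.113). Between the knockouts the summed counts were 23 and 75. The mean ratio of SLCO1B1 to SLCO1B3 per kb of transcript was 12.1 ± 5.99 in WT, 5.99 ± 0.827 in 1-1 KO and 4.20 ± 3.30 in 1-2 KO, with overlapping ranges.

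The counts of SLCO1B3 are uncertain in one respect. On 64.1% of the exon bases of its main transcript, the annotation places exons of the readthrough gene SLCO1B3-SLCO1B7 on the same strand, and 63.5% of its 50-base windows occur unchanged in transcripts of other genes. SLCO1B3-SLCO1B7 itself had between 0 and 3 counts per library. SLCO1B1 shared 11.1% of its exon bases and 7.67% of its windows with a same-strand gene without a symbol (ENSG00000257062), which had 0 counts in all libraries. How reads that match both genes were counted is not given in the sources used here.

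ABCB11 (ENSG00000073734; chr2:168915498-169031324, minus strand), the bile salt export pump, was lower in 1-2 KO than in both other lines. It had 36, 23 and 29 counts in WT, 28, 23 and 35 in 1-1 KO and 11, 9 and 11 in 1-2 KO. The WT and 1-1 KO libraries overlapped, and all 1-2 KO libraries were below them. The level fell 3.20-fold from 0.812 ± 0.173 CPM in WT to 0.254 ± 0.0251 CPM in 1-2 KO (log2 fold change -1.66, SE 0.28, adjusted p = 0.000174), and it was 2.73-fold lower than in 1-1 KO (log2 fold change -1.44, SE 0.28, adjusted p = 0.000462). In 1-1 KO it was 0.693 ± 0.152 CPM, and the log2 fold change against WT of -0.22 did not pass the threshold (95% interval -0.72 to 0.28, adjusted p = 0.418). The start region of ABCB11 printed above is the one with the match at -64 to -56.

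ABCB4 (ENSG00000005471; chr7:87401696-87480435, minus strand), the phospholipid floppase, changed little but in the same direction in both knockouts. It had 316, 303 and 239 counts in WT, 252, 274 and 275 in 1-1 KO and 256, 242 and 248 in 1-2 KO. After scaling, all WT libraries were above all knockout libraries, at 7.87 ± 0.260 CPM in WT, 6.45 ± 0.433 CPM in 1-1 KO and 6.11 ± 0.0644 CPM in 1-2 KO. It was 1.22-fold lower in 1-1 KO (log2 fold change -0.29, SE 0.08, adjusted p = 0.00554) and 1.29-fold lower in 1-2 KO (log2 fold change -0.36, SE 0.08, adjusted p = 0.00135). The difference between the knockouts, -0.08 on the log2 scale, did not pass the threshold (95% interval -0.25 to 0.09, adjusted p = 0.414). The 50 tested genes nearest to ABCB4 had a median log2 fold change of 0.15 in 1-1 KO, and relative to them ABCB4 was at -0.44. Of the 50-base windows of ABCB4, 2.80% occur in other genes, all of these in its paralog ABCB1, and the ratio of ABCB1 to ABCB4 per kb was 6.76 ± 0.150 in WT, 7.22 ± 0.441 in 1-1 KO and 7.65 ± 0.322 in 1-2 KO.

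ABCC2 (ENSG00000023839; chr10:99782640-99852594, plus strand), the exporter of conjugated organic anions, was by far the most abundant of the 10 and was lower in both knockouts. It had 7429, 6862 and 5506 counts in WT, 4353, 4253 and 4244 in 1-1 KO and 5831, 6014 and 6173 in 1-2 KO. After scaling, the 3 lines did not overlap, with 181 ± 6.21 CPM in WT, 148 ± 8.28 CPM in 1-2 KO and 103 ± 0.582 CPM in 1-1 KO. The fall in 1-1 KO was 1.75-fold (log2 fold change -0.81, SE 0.04, adjusted p = 1.05e-09) and that in 1-2 KO was 1.23-fold (log2 fold change -0.30, SE 0.04, adjusted p = 3.50e-05). ABCC2 was the only tested transporter that was higher in 1-2 KO than in 1-1 KO, by 1.43-fold (log2 fold change 0.52, SE 0.04, adjusted p = 8.80e-08). The 50 tested genes nearest to it had a median log2 fold change of -0.10 in 1-2 KO, and relative to them ABCC2 was at -0.20. The ratio of ABCC2 to ABCB11 per kb was 277 ± 69.8 in WT, 184 ± 38.0 in 1-1 KO and 700 ± 86.5 in 1-2 KO, and the 1-2 KO libraries (633 to 798) lay above all others.

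ABCG8 (ENSG00000143921; chr2:43831942-43882988, plus strand) moved in opposite directions in the knockouts. It had 92, 72 and 76 counts in WT, 159, 156 and 154 in 1-1 KO and 35, 32 and 37 in 1-2 KO. The 3 lines did not overlap. From 2.21 ± 0.259 CPM in WT the level rose 1.71-fold to 3.78 ± 0.0179 CPM in 1-1 KO (log2 fold change 0.77, SE 0.12, adjusted p = 5.14e-05) and fell 2.60-fold to 0.853 ± 0.0628 CPM in 1-2 KO (log2 fold change -1.37, SE 0.14, adjusted p = 1.86e-06). The knockouts differed 4.43-fold (log2 fold change -2.14, SE 0.13, adjusted p = 4.71e-09). No other of the 9 was a DEG in both knockouts with opposite signs.

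ABCG5 (ENSG00000138075; chr2:43812472-43838865, minus strand), the partner of ABCG8 in the heterodimer, fell with it in 1-2 KO and did not pass the threshold in 1-1 KO. It had 15, 13 and 9 counts in WT, 14, 11 and 17 in 1-1 KO and 6, 2 and 5 in 1-2 KO. The 1-2 KO libraries were below all others, and those of WT and 1-1 KO overlapped. The level was 0.336 ± 0.0467 CPM in WT, 0.338 ± 0.0749 CPM in 1-1 KO and 0.106 ± 0.0489 CPM in 1-2 KO. It was 3.18-fold lower in 1-2 KO than in WT (log2 fold change -1.64, SE 0.41, adjusted p = 0.00355) and 3.20-fold lower than in 1-1 KO (log2 fold change -1.64, SE 0.40, adjusted p = 0.00240). In 1-1 KO the log2 fold change of -0.01 had a 95% interval of -0.69 to 0.68, which includes zero and nearly reaches 0.77, the change of ABCG8. The ratio of ABCG8 to ABCG5 per kb was 2.58 ± 0.590 in WT (2.13 to 3.25), 4.43 ± 0.986 in 1-1 KO (3.48 to 5.45) and 3.75 ± 2.10 in 1-2 KO (2.24 to 6.15). The 1-1 KO libraries lay above those of WT in this ratio, and those of 1-2 KO overlapped both. By the GENCODE outline the 2 genes overlap on opposite strands by 6924 bases, and 4.96% of the exon bases of ABCG5 lie under exons of genes on the opposite strand, but none of those of ABCG8.

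SLC51A (ENSG00000163959; chr3:196211487-196243178, plus strand) and SLC51B (ENSG00000186198; chr15:65045387-65053397, plus strand), the subunits of the basolateral bile acid exporter, rose together in 1-1 KO. SLC51A had 45, 39 and 39 counts in WT, 81, 67 and 72 in 1-1 KO and 28, 43 and 41 in 1-2 KO. SLC51B had 140, 144 and 110 counts in WT, 255, 252 and 249 in 1-1 KO and 123, 122 and 155 in 1-2 KO. For both genes all 1-1 KO libraries were above all others, and after scaling the WT and 1-2 KO libraries overlapped. SLC51A was 1.56-fold higher in 1-1 KO than in WT (1.77 ± 0.143 against 1.14 ± 0.0983 CPM, log2 fold change 0.64, SE 0.18, adjusted p = 0.00549). SLC51B was 1.68-fold higher (6.09 ± 0.0530 against 3.62 ± 0.195 CPM, log2 fold change 0.75, SE 0.11, adjusted p = 3.50e-05).

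In 1-2 KO neither subunit passed the threshold against WT. SLC51A was at 0.923 ± 0.225 CPM (log2 fold change -0.30, 95% interval -0.72 to 0.12, adjusted p = 0.213) and SLC51B at 3.28 ± 0.511 CPM (log2 fold change -0.14, 95% interval -0.39 to 0.11, adjusted p = 0.329). The 1-2 KO replicate 1, the library that stood apart, was the lowest of the 9 for both genes, and without it the log2 fold changes were -0.10 and -0.06. Between the knockouts SLC51A was 1.92-fold lower (log2 fold change -0.94, SE 0.18, adjusted p = 0.000330) and SLC51B 1.85-fold lower in 1-2 KO (log2 fold change -0.89, SE 0.11, adjusted p = 5.71e-06). The ratio of SLC51A to SLC51B per kb was 0.204 ± 0.0272 in WT, 0.188 ± 0.0168 in 1-1 KO and 0.182 ± 0.0414 in 1-2 KO, with overlapping ranges. SLC51A lies across part of PCYT1A on the opposite strand, a gene with 3338 to 4088 counts per library, and 10.3% of its exon bases lie under exons of that strand. For SLC51B this share was 6.60%, where it meets RASL12 (143 to 339 counts). Whether the counting used the strand is not given in the sources used here, and without strand the reads of such stretches cannot be told apart.

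Set against each other per kb of the canonical transcript (GENCODE 44), the transporters spanned about 3 orders of magnitude on a CPM scale. ABCC2 was at 31.2 ± 1.07 CPM per kb in WT, above 85.5% of tested genes. SLC51B followed at 3.91 ± 0.212, ABCB4 at 1.83 ± 0.0605 and SLC51A at 0.794 ± 0.0687. SLCO1B1 (0.310 ± 0.0522) and ABCG8 (0.308 ± 0.0361) could not be separated in WT, and neither could ABCG5 (0.122 ± 0.0169) and ABCB11 (0.117 ± 0.0249) or SLCO1B3 (0.0318 ± 0.0184) and SLC10A1 (0.0275 ± 0.0127). The first 6 ranks were held by the same genes in all 3 lines, while SLCO1B3 came before ABCG5 and ABCB11 in both knockouts. In 1-2 KO, however, the libraries of SLCO1B3 (0.0627 ± 0.0260) overlapped those of ABCG5 (0.0383 ± 0.0177). In 1-1 KO, SLC51A (1.24 ± 0.0997) and SLCO1B1 (1.18 ± 0.0821) differed by less than their spread. Per kb of all annotated exons, SLC51A dropped to rank 6 in WT and ABCC2, SLC51B and ABCB4 held ranks 1 to 3. The canonical length was chosen after both had been computed.

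**Figure D3:**
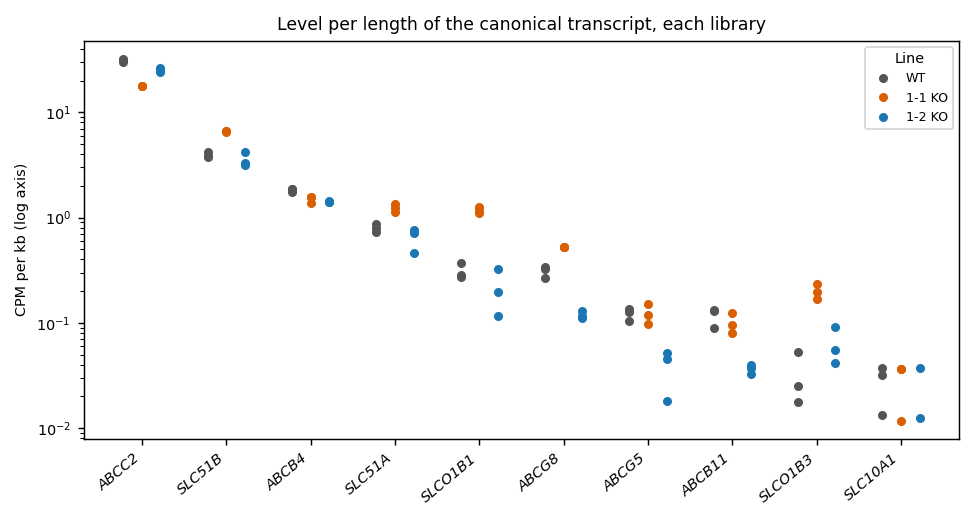
Level of the 10 transporters per kb of canonical transcript in each library, in CPM per kb on a log axis, ordered by the WT mean, with WT in grey, 1-1 KO in orange and 1-2 KO in blue. ABCC2 lies highest in every library, with means of 17.8 to 31.2 CPM per kb, and the single library with 0 counts of SLC10A1, in 1-2 KO, is not drawn.

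The other genes of bile acid and sterol handling were taken from 5 lists with 72 genes, whose counts of DEGs can be set beside the shares of all tested genes given above. For bile acid synthesis, 13 of 16 genes were tested. In 1-1 KO, 6 were higher and 3 lower than in WT (median log2 fold change 0.08), and in 1-2 KO 3 were higher and 8 lower (median -0.26). AKR1D1, the reductase that shapes the sterol ring of bile acids, rose 3.98-fold in 1-1 KO (adjusted p = 9.21e-11) and 5.08-fold in 1-2 KO (adjusted p = 1.82e-11), from 3.82 ± 0.440 CPM in WT. BAAT, which conjugates bile acids to glycine or taurine, fell 2.14-fold in 1-1 KO (adjusted p = 5.03e-08). SCP2, a peroxisomal sterol carrier and thiolase, fell 2.05-fold in 1-2 KO (adjusted p = 3.82e-11). CYP7A1, the rate-limiting enzyme of the classic pathway, was not tested for want of reads. It was chosen after its values were seen.

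Of 19 regulators of transporter genes, 18 were tested, with 8 higher and 4 lower in 1-1 KO (median 0.04) and 8 higher and 7 lower in 1-2 KO (median -0.0045, which turned to 0.05 when counts were scaled by library size alone). The medians were -0.0097 in 1-1 KO and 0.05 in 1-2 KO with DESeq2, run without the filter on low counts. NR1H4, which encodes FXR, had 2407, 2468 and 1956 counts in WT, 1776, 1746 and 1748 in 1-1 KO and 903, 830 and 895 in 1-2 KO. The 3 lines did not overlap. Its level was 62.8 ± 2.75 CPM in WT, from which it fell 1.48-fold in 1-1 KO (log2 fold change -0.57, SE 0.04, adjusted p = 6.28e-08) and 2.91-fold in 1-2 KO (log2 fold change -1.54, SE 0.05, adjusted p = 4.03e-12). Of the 6 genes named above as known FXR targets, 5 were DEGs in 1-1 KO (3 higher, SLCO1B3 included, and 2 lower) and 3 in 1-2 KO (all lower), against 63.4% and 54.4% of all tested genes, so that these counts are no result about FXR targets. Other known targets of FXR were NR0B2 (SHP), a repressor of bile acid synthesis, and the hormone FGF19, both chosen after their values were seen. From 13.3 ± 0.966 CPM in WT, NR0B2 was 1.31-fold higher in 1-1 KO (adjusted p = 0.000218) and 1.25-fold lower in 1-2 KO (adjusted p = 0.00182). FGF19 had 61.3 ± 0.560 CPM in WT against 61.0 ± 1.55 CPM in 1-1 KO (adjusted p = 0.929), and it was 1.49-fold higher in 1-2 KO (adjusted p = 1.06e-06). NFE2L2, a factor of the oxidative stress response, rose 1.41-fold in 1-1 KO (adjusted p = 3.66e-07), and NR5A2 (LRH-1), a nuclear receptor of bile acid synthesis genes, rose 1.47-fold in 1-2 KO (adjusted p = 1.79e-08).

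Of 15 other transporters of bile acids and bile components, 14 were tested, with 5 higher and 7 lower in 1-1 KO (median -0.22) and 4 higher and 7 lower in 1-2 KO (median -0.17). FABP1, the liver fatty acid binding protein that also binds bile acids, rose 3.12-fold in 1-1 KO (adjusted p = 2.37e-12) and 2.48-fold in 1-2 KO (adjusted p = 2.58e-11), from 32.8 ± 0.336 CPM. SLCO2B1, a further organic anion uptake carrier, rose 2.00-fold in 1-1 KO (adjusted p = 4.77e-10) and fell 1.47-fold in 1-2 KO (adjusted p = 4.44e-07). TMEM30A, the partner subunit of canalicular phospholipid flippases, fell 1.43-fold in 1-2 KO (adjusted p = 1.54e-08).

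Of 10 other cholesterol transporters, 9 were tested, with 4 higher and 2 lower in each knockout (medians 0.14 in 1-1 KO and 0.04 in 1-2 KO). NPC2, which binds cholesterol in the lysosome, rose 1.82-fold (adjusted p = 2.50e-09) and SCARB1, the HDL receptor, fell 1.40-fold (adjusted p = 1.21e-07) in 1-1 KO. STARD4, a cytosolic sterol carrier, rose 1.57-fold in 1-2 KO (adjusted p = 5.66e-08). ABCG1, which passes cholesterol to HDL, had 2, 2 and 3 counts in WT, 17, 16 and 6 in 1-1 KO and 41, 54 and 51 in 1-2 KO. It passed the filter on low counts only through 1-2 KO, so that its call there, counted among the 4 higher, is not given as a test. The summed counts of 1-2 KO and WT gave a ratio of 18.6, with an exact interval for counting error of 8.80 to 47.1.

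All 12 genes of canalicular scaffold and sorting were tested, with 3 higher and 8 lower in 1-1 KO (median -0.16) and 1 higher and 6 lower in 1-2 KO (median -0.17). RDX (radixin), which anchors ABCC2 in the canalicular membrane, fell 1.69-fold in 1-1 KO (adjusted p = 9.83e-11). STX3, a syntaxin of apical membrane fusion, fell 1.48-fold in 1-1 KO (adjusted p = 2.55e-08) and 1.63-fold in 1-2 KO (adjusted p = 3.35e-09). RAB11A, a GTPase of recycling endosomes, fell 1.42-fold in 1-2 KO (adjusted p = 7.18e-08).

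**Figure D4:**
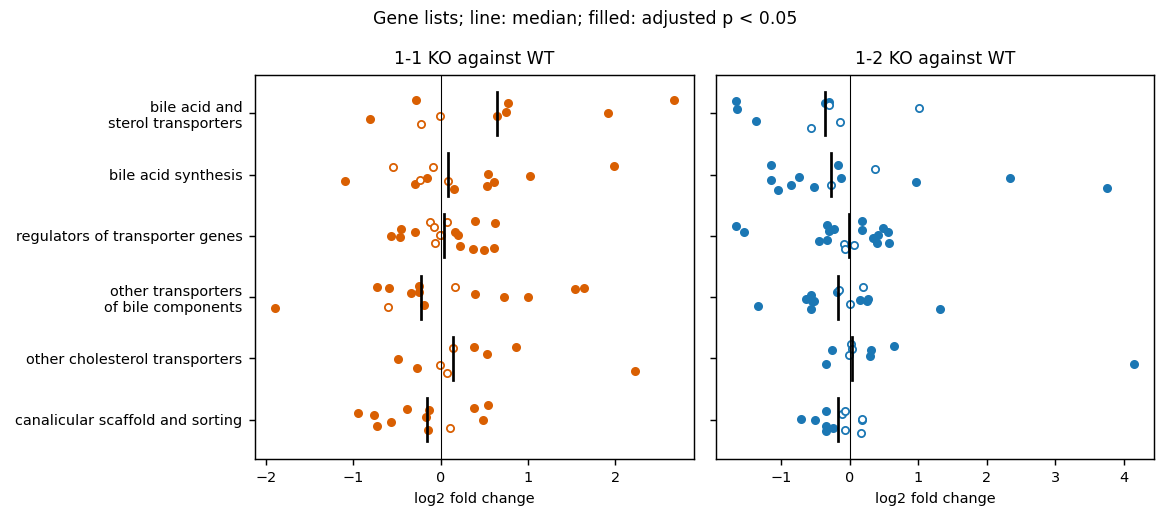
Log2 fold change of each tested gene of the transporters and of the 5 further lists in 1-1 KO against WT (orange, left) and 1-2 KO against WT (blue, right), where filled points are DEGs, black lines are list medians and the vertical position within a list is arbitrary. The median of the 9 tested transporters is 0.64 in 1-1 KO (0.32 without SLCO1B3) and -0.36 in 1-2 KO, and the medians of the 5 further lists lie between -0.26 and 0.14. The filled points of SLCO1B3 in 1-1 KO and of ABCG1 in 1-2 KO are no support, as each passed the filter on low counts only through that line.

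Hepatocyte markers moved with the lines as well. Their summed level over 10 genes was 14538 to 15367 CPM in WT, 24785 to 25552 CPM in 1-1 KO and 15774 to 17269 CPM in 1-2 KO. Of this, ALB alone made up 2479 to 2589 CPM in WT, 9283 to 9707 CPM in 1-1 KO and 4416 to 4907 CPM in 1-2 KO. All 10 were DEGs with a higher level in 1-1 KO than in WT, and in 1-2 KO 5 were higher and 3 lower. Among all tested genes, 32.5% were higher and 30.9% lower in 1-1 KO, and 28.2% and 26.2% in 1-2 KO. The same shares stand beside the counts of the other markers. The 6 cholangiocyte markers summed to 313 to 356 CPM in WT, 487 to 500 CPM in 1-1 KO and 325 to 432 CPM in 1-2 KO, and KRT7 was at the floor in 1-1 KO. The 6 markers of ileal enterocytes, cells that express SLC51A and SLC51B strongly, summed to 956 to 1020, 470 to 478 and 809 to 878 CPM in the same order, of which VIL1 made up 955 to 1020 CPM in WT. The 4 tested ones did not move together, with 2 higher and 1 lower in 1-1 KO and 1 higher and 3 lower in 1-2 KO. SI had at most 0.0800 CPM in WT, 24.5 to 28.3 CPM in 1-1 KO and 8.10 to 9.78 CPM in 1-2 KO, and APOA4 had 0.427 to 0.747 CPM in WT and 1.65 to 1.79 CPM in 1-1 KO, while SLC10A2 and FABP2 were at the floor in all lines. The 6 endothelial markers summed to 12.1 to 12.9 CPM in WT, 8.22 to 9.53 CPM in 1-1 KO and 1.26 to 2.16 CPM in 1-2 KO, with KDR at 0 in all libraries. The 6 leukocyte markers summed to 115 CPM in each WT library, 102 to 107 CPM in 1-1 KO and 21.7 to 22.5 CPM in 1-2 KO, mostly from LYZ, with CD68 at the floor in all lines. The 6 stellate and fibroblast markers summed to 17.8 to 19.1 CPM in WT, 18.1 to 19.1 CPM in 1-1 KO and 29.2 to 31.1 CPM in 1-2 KO, where all 4 tested ones were higher than in WT, with LRAT at the floor in both knockouts and DCN in WT. The part of these markers in the differences of the transporters was not tested.

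Across the 9 libraries, the transporters also differed in which of them varied together, on log2(CPM + 1). The libraries fall into 3 lines and share their depth and scaling, so that these values of r describe the 3 lines and carry no p. SLC51B was most alike to SLCO1B1 (r = 0.980) and SLC51A (r = 0.912), ABCB11 to ABCG5 (r = 0.909), and ABCC2 ran opposite to SLCO1B3 (r = -0.943) and SLCO1B1 (r = -0.827). Among 13351 genes with at least 1 CPM on average, those most like SLCO1B1 were THRA, which encodes a thyroid hormone receptor (r = 0.993), and ZNF791 (r = 0.990). Those most like SLCO1B3 were CFLAR (r = 0.982) and LINC02432 (r = 0.980), and those most like SLC51B were SCRN3 (r = 0.998) and MDH1 (r = 0.992). SLC7A6 (r = 0.983) and CCDC134 (r = 0.977) were most like SLC51A. For ABCB11 they were KRT10 (r = 0.980) and LONRF3 (r = 0.979), and for ABCB4 they were TLK1 and GK (r = 0.984 for each). ABCC2 was most like KTN1 and CCT3 (r = 0.998 for each), ABCG5 most like FMO5 (r = 0.968) and ZNF844 (r = 0.965), and ABCG8 most like PPT2 (r = 0.998) and MGLL (r = 0.997). Between 280 and 1315 genes had r above 0.9 with a given transporter, so that each of these pairs is 1 of many.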

How the data were processed

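Stranded paired-end mRNA libraries were made from 3 Huh-7 lines, with 3 libraries each. The deposited values are counts of reads per gene without normalization, which the authors made by aligning to hg38 with annotation version 104. The submitters' processing notes name STAR and featureCounts, and versions, strand setting and handling of reads with several matches are not given in the sources used here. Counts were tested in R 4.3.3 with edgeR 4.0.16 (filterByExpr at 10 counts and 15 in total, TMM, glmQLFit and glmQLFTest, 1 fit of 9 libraries), and every adjusted p comes from this test unless another is named. DESeq2 1.42.0 was an alternative, and tables were made in Python 3.11.15. The biological coefficient of variation was 5.55%. Fold changes are ratios of mean CPM. Values of 3 counts or fewer were taken as the floor, and intervals on counts cover counting error only. Positions come from GENCODE 44, which held 60463 of the 60664 identifiers. The steps were checked on simulated counts.

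Besides the 10 transporters, genes named are the 2 DEGs of each list with the smallest adjusted p in each knockout whose libraries did not overlap WT, the 2 genes most like each transporter, and overlapping genes. NR0B2, FGF19, CYP7A1, ABCC3, ABCC4, ABCC6, ABCB1, ABCG2 and ABCA1 were added after their values were seen. The transporters, lists, markers and tests were chosen with earlier results of these data known. Alternatives were DESeq2, other scalings and filters, fits of 2 lines only, a replicate block, a threshold of 0.01, subtraction of neighbouring genes and leaving out each library.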

Additional observations from a re-analysis of the deposited data

How the results depend on the processing

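Of 449 tested values of the 27 transporter changes under alternatives, 442 kept their direction and their side of the threshold. Subtraction of the median of 50 neighbouring genes, which has no test, moved 21 of 27 changes by less than the spread between libraries and turned the sign of 1, ABCG5 in 1-1 KO against WT, to 0.035. The shared replicate numbers did not pair the libraries, since deviations of same-numbered libraries correlated between -0.19 and 0.05 over 9 pairs. With the replicate number as a replicate block, 1 transporter in place of 2 was lower in 1-1 KO than in WT, as ABCB4 missed the threshold (log2 fold change -0.24, adjusted p = 0.112), and no other call changed. Keeping genes that reached 10 counts in each of the 9 libraries left 6 transporters to test, of which 3 were DEGs in 1-2 KO against WT, with 3 lower, and 5 between the knockouts, with 4 lower. The change of ABCG5 in 1-1 KO against WT, near 0, also turned to 0.045 with library size alone and ran from -0.18 to 0.14 without single libraries. Without 1-2 KO replicate 3, SLCO1B1 passed the threshold in 1-2 KO against WT. Depth limits SLC10A1, SLCO1B3 and ABCG5, which had at most 29 counts in any library. It also limits ABCB11, which had 9 to 36 counts and was not tested under the filter of 10 counts in each library.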
